A study of Saccharomyces cerevisiae with 60 samples.

Results

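The genes described here, 10 in number, are ULI1, a marker of the unfolded protein response, and genes that act in protein folding in the lumen of the endoplasmic reticulum (ER) of budding yeast. All were followed through heat shock in 4 strain states. They were taken as a given list of 10 symbols, mapped to the R64 annotation, from 7126 counted features. KAR2 encodes the lumenal Hsp70 (BiP), and SIL1 and LHS1 encode its nucleotide exchange factors. SCJ1 and JEM1 encode J-proteins that stimulate Kar2. ERO1 encodes the oxidase that feeds disulfide bond formation, and PDI1, EUG1 and MPD1 encode members of the protein disulfide isomerase family. ULI1 is a gene known for its induction by the unfolded protein response. In R64 the genes lie with KAR2 (YJL034W) at chrX:381327-383375 on the + strand, SIL1 (YOL031C) at chrXV:266264-267529 on the - strand, LHS1 (YKL073W) at chrXI:296430-299075 on the + strand, SCJ1 (YMR214W) at chrXIII:695350-696483 on the + strand and JEM1 (YJL073W) at chrX:303181-305118 on the + strand. The others lie with ERO1 (YML130C) at chrXIII:11483-13174 on the - strand, PDI1 (YCL043C) at chrIII:48653-50221 on the - strand, EUG1 (YDR518W) at chrIV:1478608-1480161 on the + strand, MPD1 (YOR288C) at chrXV:852121-853077 on the - strand and ULI1 (YFR026C) at chrVI:205748-206257 on the - strand.

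Unfolded proteins in the ER lumen activate the kinase and endonuclease Ire1, which starts the splicing of HAC1 mRNA, and the Hac1 protein then activates genes of ER folding and degradation. Hsf1 is the essential activator of cytosolic and nuclear chaperone genes in heat, and Msn2 and Msn4 activate the general stress response. KAR2 is known to be reached by both Hac1 and Hsf1, through an unfolded protein response element and a heat shock element in its promoter.

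Poly(A) RNA was sequenced from W303 strains, all of which carried Hsf1 tagged for anchor-away, a method in which rapamycin removes the tagged protein from the nucleus. The double loss state had msn2Δ/msn4Δ and rapamycin, the MSN-deleted state msn2Δ/msn4Δ and the solvent DMSO, the Hsf1-depleted state rapamycin with MSN2 and MSN4 present, and the wild type state DMSO with both present. All were kept with rapamycin or DMSO for 45 min at 25 °C in rich medium, and sampled at 25 °C or after 10 or 30 min at 37 °C or 42 °C. There were 3 libraries in each of the 20 groups, 60 in all. Rapamycin itself and the loss of nuclear Hsf1 cannot be told apart in these groups, since no state received rapamycin without the Hsf1 tag.

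Library totals ran from 3848210 to 10142858 counts, with a median of 5938357, and no count of a gene in the list was below 21. MSN2 and MSN4 averaged at most 0.5 CPM (counts per 1e6 reads of the library, scaled by TMM) in every group labelled as deleted, and at least 103 CPM in every other group. The heat shock Hsp70 gene SSA4 was picked after its values were seen. After 10 min at 37 °C it averaged 34.6 CPM in double loss and 5814 CPM in MSN-deleted cells. In Hsf1-depleted and wild type cells it averaged 41.6 and 3767 CPM there. The labels do not say that replicates are separate cultures, so p-values measure only the spread between these samples. Lying more than 3 median absolute deviations beyond the typical distance from their groups were 4 libraries: double loss at 37 °C for 30 min replicate 2, Hsf1-depleted at 25 °C replicate 1, double loss at 25 °C replicate 2 and MSN-deleted at 42 °C for 10 min replicate 1. Without them, 8 of 249 calls on these genes were lost and 18 were gained.

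Promoters are shown for 4 genes: KAR2 and ERO1 for their early heat responses, ULI1 for the largest response, and LHS1 as the other gene with the core element. Windows run from 250 bases before to 50 after the annotated gene start, were read from the R64 genome, and are printed 5′ to 3′ on the gene's strand. Capitals mark exact matches on either strand to 3 motifs: the heat shock element of 3 units (TTC, GAA and TTC, or GAA, TTC and GAA, with any 2 bases between neighbours, each the reverse complement of the other), the unfolded protein response element core CAGCGTG, and the second such element TACGTG, which was added after the windows had been read.
KAR2 (YJL034W, chrX:381077-381376, + strand): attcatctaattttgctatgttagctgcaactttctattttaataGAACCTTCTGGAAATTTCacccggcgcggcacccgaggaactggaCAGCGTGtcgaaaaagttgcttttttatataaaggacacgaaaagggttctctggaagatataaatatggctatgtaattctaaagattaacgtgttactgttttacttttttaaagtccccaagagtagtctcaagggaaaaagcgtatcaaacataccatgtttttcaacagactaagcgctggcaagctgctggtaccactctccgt
LHS1 (YKL073W, chrXI:296180-296479, + strand): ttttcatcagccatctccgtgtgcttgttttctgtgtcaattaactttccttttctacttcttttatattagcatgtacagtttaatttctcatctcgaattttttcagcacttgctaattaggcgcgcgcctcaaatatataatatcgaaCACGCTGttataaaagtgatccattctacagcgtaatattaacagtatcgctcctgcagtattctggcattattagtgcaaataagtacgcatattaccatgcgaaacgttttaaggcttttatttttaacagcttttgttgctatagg
ERO1 (YML130C, chrXIII:13125-13424, - strand): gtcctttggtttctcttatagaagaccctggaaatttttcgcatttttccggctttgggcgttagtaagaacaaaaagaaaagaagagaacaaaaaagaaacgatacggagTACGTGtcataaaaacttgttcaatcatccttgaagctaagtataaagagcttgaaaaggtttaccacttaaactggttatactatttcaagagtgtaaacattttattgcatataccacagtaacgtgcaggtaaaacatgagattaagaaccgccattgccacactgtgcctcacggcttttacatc
ULI1 (YFR026C, chrVI:206208-206507, - strand): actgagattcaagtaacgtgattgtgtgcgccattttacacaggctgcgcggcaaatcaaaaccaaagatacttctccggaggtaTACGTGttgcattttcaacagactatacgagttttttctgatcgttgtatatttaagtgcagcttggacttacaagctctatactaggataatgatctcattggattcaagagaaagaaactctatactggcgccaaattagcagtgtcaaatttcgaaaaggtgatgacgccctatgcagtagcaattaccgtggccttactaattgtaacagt

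The KAR2 window held 2 overlapping matches to the heat shock element, from 205 to 188 bases before the start, and 1 match to the core unfolded protein response element, from 160 to 154 bases before it. Heat shock elements of this form were in 0.783% of 6001 gene windows, and KAR2 was the only gene of the 10 with one. Gapped, inexact or shorter forms of the element were not searched for. The core CAGCGTG was in 1.17% of windows and in those of KAR2 and LHS1. TACGTG was in 7.75% of windows and in 5 of the 10, namely SIL1, ERO1, EUG1, MPD1 and ULI1. The stress response element AGGGG, bound by Msn2 and Msn4, was in 21.6% of windows and in 0 of the 10. SCJ1, JEM1 and PDI1 held no exact match to any of these motifs.

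**Figure D1:**
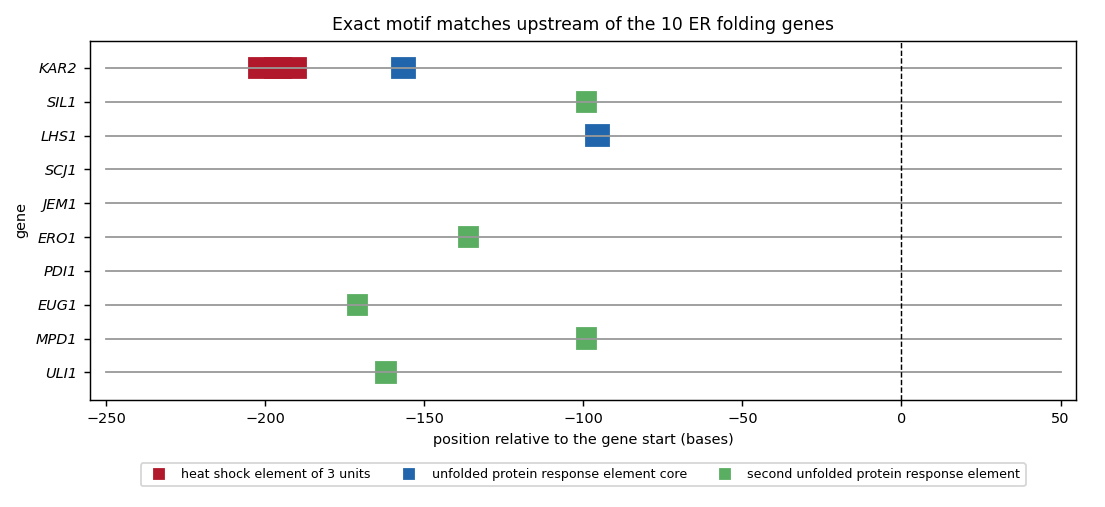
Exact motif matches in the window from 250 bases before to 50 bases after the start of each gene, with position relative to the gene start on the x axis and 1 line per gene. The heat shock element occurs upstream of KAR2 alone, and the second unfolded protein response element upstream of 5 genes.

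At 25 °C the 10 genes spanned a wide range of levels that did not separate the states by the test. Per kilobase of gene, PDI1 averaged 1350 ± 420 CPM per kb and KAR2 653 ± 211 CPM per kb in wild type cells (SD, n = 3). SIL1 followed with 102 ± 1.86 CPM per kb, and ULI1 was lowest with 13.5 ± 0.96 CPM per kb. SCJ1, ERO1, EUG1, MPD1 and LHS1 lay between 31.1 and 54.1 CPM per kb on average and JEM1 at 21.2 CPM per kb, and neither SCJ1 and ERO1 nor EUG1 and MPD1 differed by more than their SDs. Over all 20 groups the highest mean was 188-fold the lowest for ULI1, 67.3-fold for KAR2 and 8.19-fold for PDI1, with the other genes between 10.4-fold and 30.7-fold. PDI1 overlaps YCL041C by 89 bases on the same strand, so reads there cannot be assigned with certainty.

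Among the 4 comparisons of states at 25 °C, 0 of 40 pairs of a gene and a comparison were called by edgeR's quasi-likelihood test, where a call needs a change of 1 or more on the log2 scale in either direction and a Benjamini-Hochberg adjusted p under 0.05. An unadjusted p under 0.05 was reached by 5 pairs, and DESeq2 called 0. Of all 6070 genes tested, 0.494% were called in double loss against wild type, 0.115% in MSN-deleted against wild type, 0.198% in Hsf1-depleted against wild type and 0.329% in double loss against MSN-deleted. KAR2 had 699, 875 and 922 CPM in Hsf1-depleted cells, against 983, 1212 and 1819 CPM in wild type cells at 25 °C. The Hsf1-depleted libraries were all below the wild type ones, at a log2 fold change of -0.69 ± 0.27 (SE) and an adjusted p of 0.688 with edgeR. In double loss cells KAR2 had 693 to 1005 CPM at 25 °C, all below the 1400 to 1627 CPM of MSN-deleted cells, also without a call. Heat responses are taken against 25 °C of the same state, so these levels enter each difference of KAR2 responses.

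**Figure D2:**
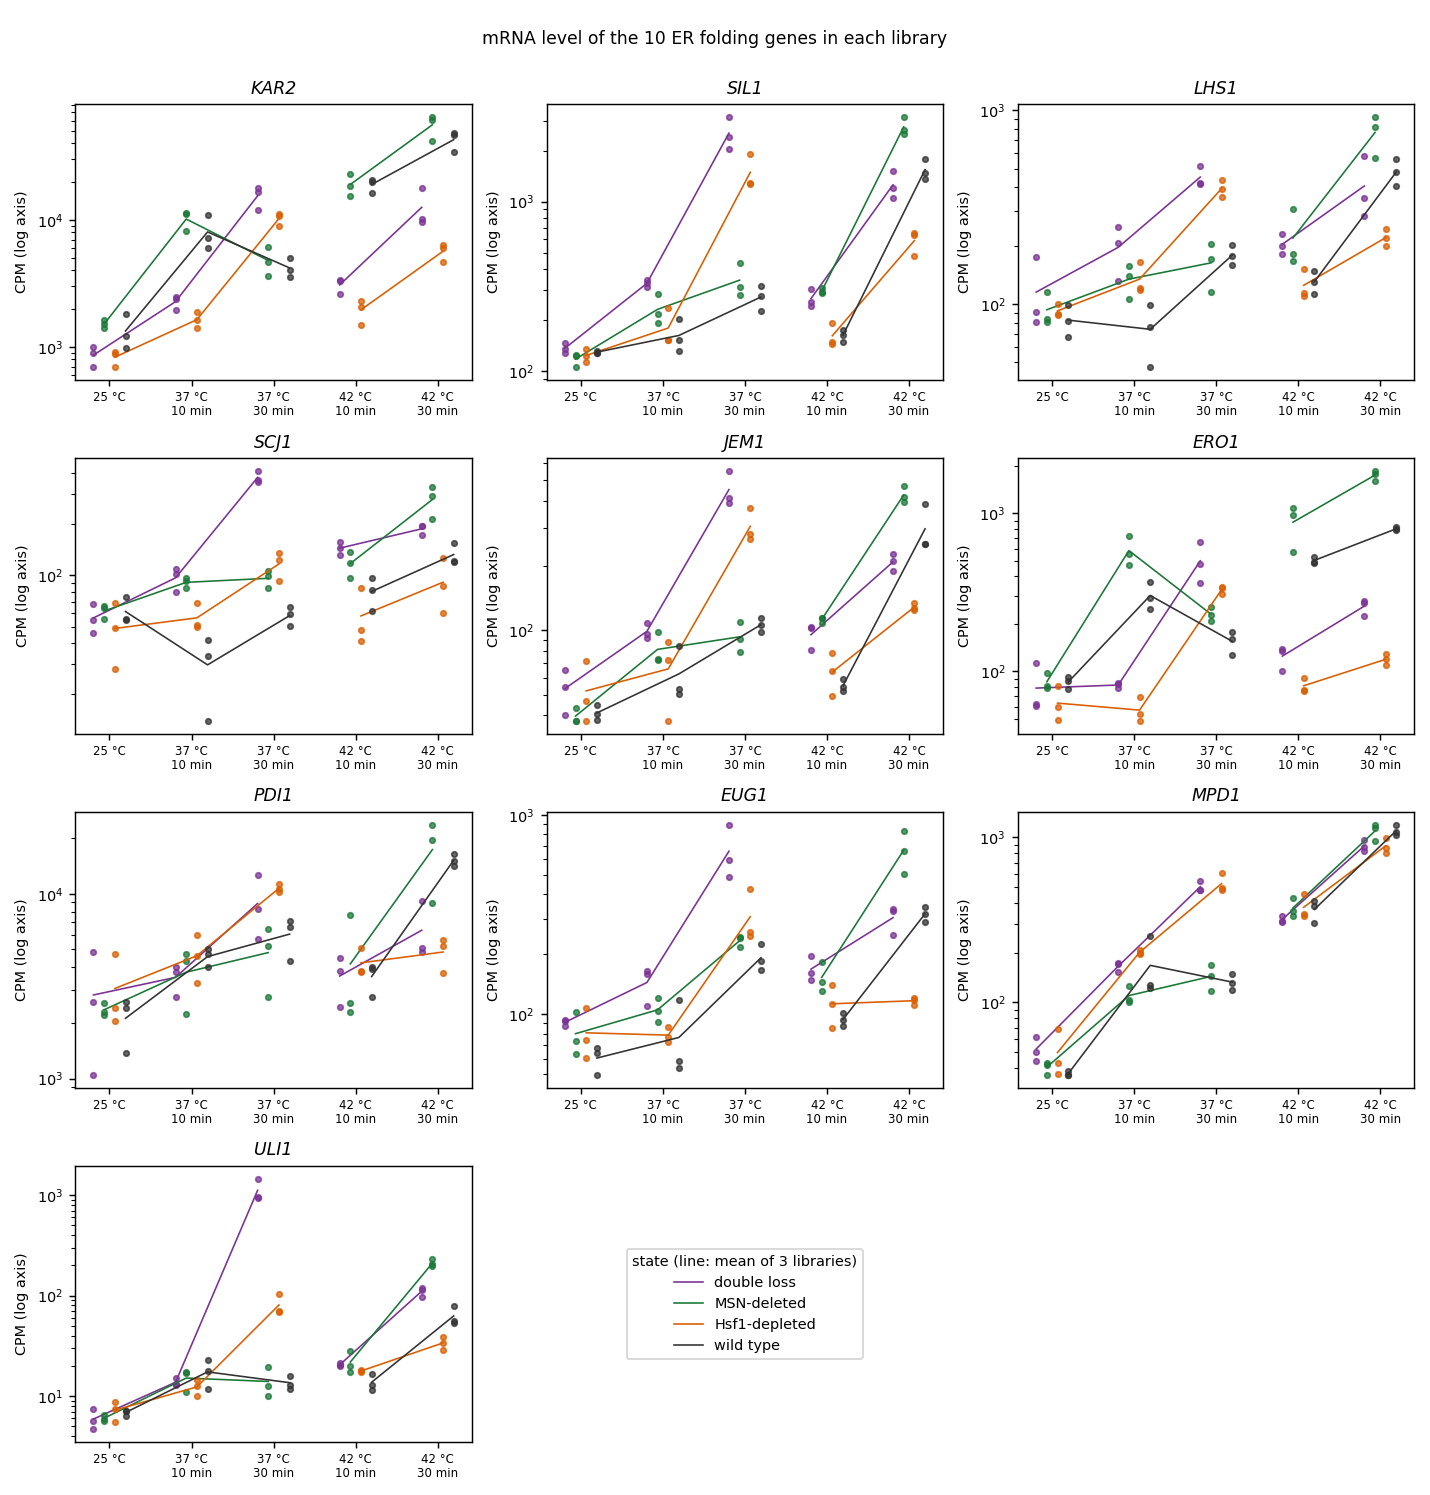
Level of each gene in CPM (log axis) in every library, with the 5 conditions on the x axis and the 4 states in colour; points are libraries and lines join the means of 3 libraries within a temperature. ULI1 stands at 939 to 1453 CPM in double loss cells at 37 °C for 30 min, and ERO1 at 48.4 to 139 CPM after 10 min of heat in the states given rapamycin, below the 249 CPM and more of the other 2.

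After 10 min of heat, KAR2 and ERO1 rose in the states that kept Hsf1 in the nucleus. In those that had lost it, KAR2 rose less, short of the fold threshold in 1 of 4 responses, and ERO1 was not called. KAR2 had 1422, 1622 and 1879.7 CPM in Hsf1-depleted cells at 37 °C for 10 min, against 699, 875 and 922 CPM at 25 °C. In wild type cells it had 6019, 7248 and 10846 CPM at 37 °C for 10 min, against 983, 1212 and 1819 CPM at 25 °C. Heated and 25 °C libraries did not overlap in either state. The log2 fold change was 0.98 ± 0.28 in Hsf1-depleted cells, short of the fold threshold, against 2.59 ± 0.29 in wild type cells. The difference between these responses was -1.61 ± 0.39 (edgeR adjusted p = 0.0119). KAR2 at 42 °C for 10 min reached 1485, 2083 and 2321 CPM in Hsf1-depleted cells, against 16333, 19952 and 20693 CPM in wild type cells, and the response differed by -2.59 ± 0.39 (adjusted p = 7.4e-06). The Hsf1-depleted response there was itself called, at 1.24 ± 0.28 (adjusted p = 0.00019).

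ERO1 was not called at 10 min in either state without nuclear Hsf1, at 37 °C or at 42 °C. It had 48.4, 53.8 and 68.5 CPM in Hsf1-depleted cells at 37 °C for 10 min, against 249, 290.0 and 368 CPM in wild type cells. It had, at 42 °C for 10 min, 75.7, 76.3 and 91.5 CPM in Hsf1-depleted cells, against 484, 496 and 534 CPM in wild type cells. The 2 sets of libraries lay far apart at both temperatures, with every Hsf1-depleted library below every wild type one. Log2 fold changes against 25 °C were -0.15 ± 0.22 and 0.36 ± 0.23 at 37 °C and 42 °C in Hsf1-depleted cells, against 1.82 ± 0.23 and 2.56 ± 0.24 in wild type cells. The responses differed by -1.97 ± 0.32 at 37 °C (adjusted p = 4.8e-05) and by -2.20 ± 0.32 at 42 °C (adjusted p = 3.6e-06).

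The same 2 genes stood out in the strain without MSN2 and MSN4. ERO1 had 78.7, 83.6 and 84.0 CPM in double loss cells at 37 °C for 10 min, against 469, 553 and 725 CPM in MSN-deleted cells. The responses differed by -2.70 ± 0.32 at 37 °C for 10 min (adjusted p = 2.4e-08) and by -2.69 ± 0.32 at 42 °C for 10 min (adjusted p = 1.9e-08). KAR2 rose in double loss cells at both temperatures, with 1941, 2401 and 2482 CPM at 37 °C for 10 min and 2595, 3299 and 3345 CPM at 42 °C for 10 min, against 693, 894 and 1005 CPM at 25 °C. Its log2 fold changes were 1.40 ± 0.28 and 1.83 ± 0.28 (adjusted p = 0.00015 and 5.8e-07), all heated libraries lying above those at 25 °C. For KAR2 the differences from the MSN-deleted responses were -1.35 ± 0.39 at 37 °C and -1.81 ± 0.39 at 42 °C (adjusted p = 0.027 and 0.0023). The first of these lost its call without double loss replicate 3 at 37 °C for 10 min, at -1.35.

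In all, at 37 °C for 10 min, 2 of 10 genes had a lower response in Hsf1-depleted than in wild type cells, where 1.58% of all genes tested did. The count was 2 of 10 at 42 °C for 10 min too, beside 1.05% of all genes. Lower in double loss minus MSN-deleted cells were 2 of 10 at each temperature, beside 1.14% of all genes at 37 °C and 1.4% at 42 °C. Lower in double loss minus wild type cells were 2 of 10 at each temperature, beside 13.2% of all genes at 37 °C and 7.92% at 42 °C. In each of these counts the genes were KAR2 and ERO1. KAR2 at 37 °C for 10 min in double loss minus wild type, at -1.19 ± 0.39, was lost without wild type replicate 3 at 25 °C, at -1.05. Its call there also ended with the compared libraries alone (-1.21) and with library totals alone (-0.43), and that of KAR2 in Hsf1-depleted minus wild type cells with the compared libraries alone (-1.62). Under library totals alone ERO1 lost its call at 37 °C for 10 min in Hsf1-depleted minus wild type (-1.43) and double loss minus wild type cells (-1.09), and at 42 °C for 10 min in double loss minus wild type cells (-1.24). A larger response in double loss minus wild type cells at 37 °C for 10 min was called for 1 of 10 genes (11% of all genes), SCJ1 at 1.83 ± 0.40.

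MPD1 rose at 10 min in all 4 states. It had 308, 313 and 335 CPM in double loss cells, 333, 360.1 and 428 CPM in MSN-deleted cells, 335, 342 and 453 CPM in Hsf1-depleted cells and 304, 383 and 409.9 CPM in wild type cells at 42 °C for 10 min. At 25 °C its libraries lay between 36.3 and 69.4 CPM in the 4 states, so heated and unheated libraries did not overlap. Log2 fold changes at 42 °C for 10 min were 2.61 ± 0.22, 3.20 ± 0.22, 2.93 ± 0.22 and 3.31 ± 0.22 in double loss, MSN-deleted, Hsf1-depleted and wild type cells (largest adjusted p = 9.9e-14). The difference in Hsf1-depleted minus wild type cells was -0.37 ± 0.29 there and -0.16 ± 0.29 at 37 °C for 10 min, and neither was called.

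The other genes moved unevenly within 10 min. ULI1 rose in 7 of the 8 heat responses and EUG1 in 0 by edgeR's test. In MSN-deleted cells at 42 °C for 10 min SIL1, LHS1, JEM1 and ULI1 rose, at 1.33 ± 0.21, 1.23 ± 0.28, 1.49 ± 0.23 and 1.85 ± 0.25. At 37 °C for 10 min 4 of 10 rose in double loss cells (4.68% of all genes), 5 in MSN-deleted cells (8.02%), 1 in Hsf1-depleted cells (16.1%) and 5 in wild type cells (21%). The counts at 42 °C for 10 min were 4 in double loss (17.1% of all genes), 7 in MSN-deleted (19.5%), 3 in Hsf1-depleted (22.6%) and 4 in wild type cells (23.1%). SIL1, LHS1, SCJ1, JEM1, PDI1 and EUG1 were not among the genes that rose in Hsf1-depleted cells at either temperature, with log2 fold changes from -0.03 for EUG1 to 0.59 for PDI1. SCJ1 fell in wild type cells at 37 °C for 10 min, with 13.9, 33.8 and 41.7 CPM against 54.4, 55.3 and 74.4 CPM at 25 °C and a log2 fold change of -1.05 ± 0.28 (adjusted p = 0.0015), beside 22.2% of all genes called down. This call was lost without wild type replicate 1 at 25 °C (-0.83), without wild type replicate 3 at 37 °C for 10 min (-0.63) and with no filter on low counts (-0.98). The rise of PDI1 there, 1.11 ± 0.43, was lost without wild type replicate 3 at 25 °C (0.96), and that of ULI1 at 42 °C for 10 min in wild type cells, 1.0 ± 0.25, without wild type replicate 2 at 25 °C (0.94) or replicate 3 at 42 °C for 10 min (0.83). In MSN-deleted cells at 42 °C for 10 min, LHS1 lost its call without replicate 1 of the heated libraries (0.87). Library totals alone ended the rises of PDI1 and ULI1 in wild type cells at 37 °C for 10 min (0.64 and 0.79) and of ULI1 at 42 °C for 10 min (0.52), and the compared libraries alone that of ULI1 in double loss cells at 37 °C for 10 min (1.24).

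**Figure D3:**
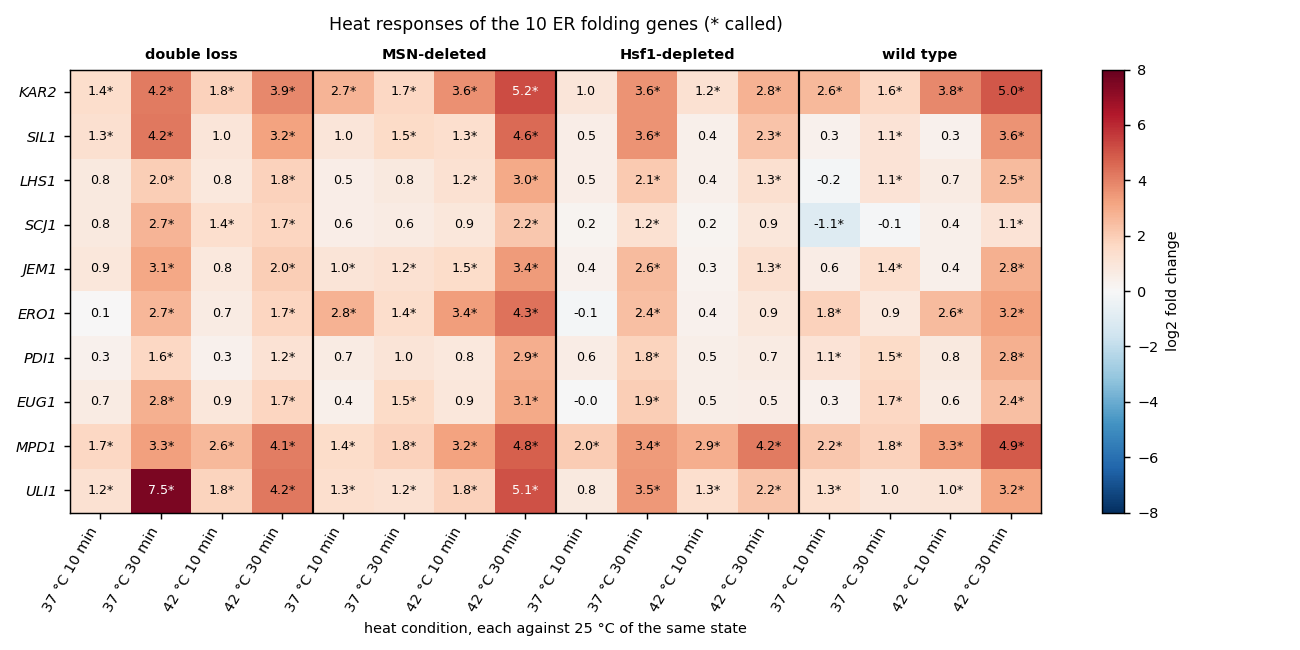
Log2 fold change of each gene in 16 heat responses, with the 4 states side by side and the heat conditions within each on the x axis; colour and printed value give the log2 fold change against 25 °C of the same state, and a star marks a call. All 10 genes are starred at 37 °C for 30 min in double loss and Hsf1-depleted cells. In 103 of 160 squares the gene was called up, where 4.68% to 30.2% of all genes were called up in these responses.

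After 30 min at 37 °C all 10 genes rose in both states without nuclear Hsf1, and most had larger responses there than with it. For KAR2 and ERO1 this order of the states was the opposite of that at 10 min. In double loss cells 10 of 10 rose, beside 16.9% of all genes, and in Hsf1-depleted cells 10 of 10, beside 22.9%. In MSN-deleted cells 7 of 10 rose (7.87% of all genes) and in wild type cells 7 of 10 (14.4%). The median log2 fold change of the 10 was 2.97 in double loss, 1.32 in MSN-deleted, 2.47 in Hsf1-depleted and 1.24 in wild type cells, where the median of all genes lay between -0.01 and 0.02. The rise of PDI1 in double loss cells, 1.65 ± 0.43, lost its call with the compared libraries alone (1.65, adjusted p = 0.088), and kept it there with the replicate number as a block (1.85, adjusted p = 0.0055). The share of all counts that fell on the 10 genes was 4.13 ± 0.09% in double loss, 1.24 ± 0.26% in MSN-deleted, 2.13 ± 0.08% in Hsf1-depleted and 1.10 ± 0.08% in wild type cells (SD, n = 3 each).

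The exchange factor gene SIL1 showed this pattern clearly. It had 1279, 1283 and 1911 CPM in Hsf1-depleted cells at 37 °C for 30 min, against 226, 277 and 317 CPM in wild type cells. In double loss cells it had 2047, 2408 and 3167 CPM, against 282, 314 and 434 CPM in MSN-deleted cells. The lowest library without nuclear Hsf1 was above the highest with it. The response was larger by 2.52 ± 0.30 in Hsf1-depleted minus wild type cells (adjusted p = 4.7e-09) and by 2.68 ± 0.30 in double loss minus MSN-deleted cells (adjusted p = 2.5e-09).

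KAR2 had 9003, 10664 and 11062 CPM in Hsf1-depleted cells at 37 °C for 30 min, against 3552, 4042 and 4974 CPM in wild type cells. The response was larger by 1.98 ± 0.39 (adjusted p = 8.8e-05), where at 10 min it had been the smaller one. ERO1 likewise had 307, 338 and 343 CPM in Hsf1-depleted cells, against 127, 160.2 and 178 CPM in wild type cells, and its response was larger by 1.53 ± 0.32 (adjusted p = 0.00019). For both genes the Hsf1-depleted libraries were all above the wild type ones at 30 min and all below them at 10 min. In double loss cells KAR2 had 11949.8, 16492 and 17960.0 CPM, against 3592, 4698 and 6091 CPM in MSN-deleted cells, and the response was larger by 2.50 ± 0.39 (adjusted p = 3.1e-06).

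The J-protein genes rose as well. SCJ1 had 356, 364 and 413 CPM in double loss cells at 37 °C for 30 min, against 84.1, 98.8 and 106 CPM in MSN-deleted cells, without overlap. JEM1 had 389, 414 and 552 CPM in double loss cells, against 79.1, 90.8 and 109 CPM in MSN-deleted cells, again without overlap. Responses were larger in double loss cells by 2.10 ± 0.39 for SCJ1 and by 1.86 ± 0.33 for JEM1 (adjusted p = 5.8e-05 and 2.5e-05). In Hsf1-depleted minus wild type cells the differences were 1.33 ± 0.39 and 1.19 ± 0.33 (adjusted p = 0.0082 and 0.0042). SCJ1 lost this call under library totals alone (1.33, adjusted p = 0.072).

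The disulfide isomerase genes differed among themselves. MPD1 had 478, 492 and 604 CPM in Hsf1-depleted cells at 37 °C for 30 min, against 119, 132 and 148 CPM in wild type cells, with a response larger by 1.57 ± 0.29 (adjusted p = 4.4e-05). EUG1 had 246, 257 and 423 CPM in Hsf1-depleted cells, against 167, 185 and 224 CPM in wild type cells, and its response differed by 0.27 ± 0.35, which was not called. PDI1 had 10170.5, 10602 and 11332 CPM in Hsf1-depleted cells, against 4348, 6649 and 7149 CPM in wild type cells. At 25 °C it had 1043, 2608 and 4847 CPM in double loss cells, a wide spread. Its response differed by 0.29 ± 0.60 in Hsf1-depleted minus wild type and by 0.62 ± 0.60 in double loss minus MSN-deleted cells, neither of which was called.

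Altogether 7 of 10 genes had a larger response in Hsf1-depleted than in wild type cells at 37 °C for 30 min, beside 7.89% of all genes. In double loss minus MSN-deleted cells 9 of 10 did, beside 6.26%, and in double loss minus wild type cells 8 of 10, beside 9.64%. In MSN-deleted minus wild type cells 0 of 10 did with edgeR, beside 0.0329% of all genes, and the differences ran from -0.49 for PDI1 to 0.72 for SCJ1. The comparisons share wild type or double loss libraries. The exchange factor gene LHS1, at 1.17 ± 0.39 in double loss minus MSN-deleted cells (adjusted p = 0.027), lost its call without any 1 of 5 libraries, namely replicate 1 of MSN-deleted at 25 °C, replicate 1 of MSN-deleted at 37 °C for 30 min, replicates 2 and 3 of double loss at 25 °C and replicate 3 of double loss at 37 °C for 30 min, at values from 1.02 to 1.11. In wild type cells at 37 °C for 30 min, LHS1 lost its call without replicate 3 at 25 °C (0.96) and SIL1 without replicate 3 at 37 °C for 30 min (0.94). In MSN-deleted cells ULI1 lost its call without replicate 3 of the heated libraries (0.92). Library totals alone ended the wild type calls of LHS1 (0.99) and SIL1 (0.94) too. The compared libraries alone ended that of LHS1 in double loss minus MSN-deleted cells (1.22).

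**Figure D4:**
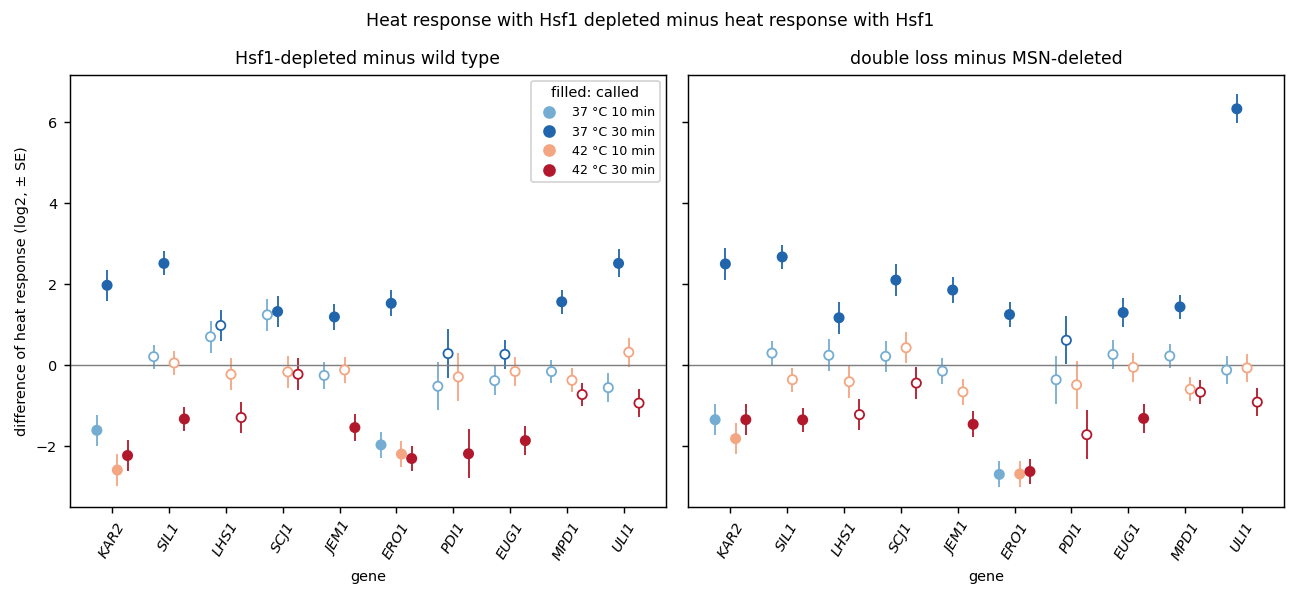
Difference of heat response (log2, ± SE) for each gene in Hsf1-depleted minus wild type cells and in double loss minus MSN-deleted cells, with 1 colour per heat condition and filled points for calls. KAR2 and ERO1 lie below 0 at 10 min and above 0 at 37 °C for 30 min, and ULI1 reaches 6.33 in double loss minus MSN-deleted cells.

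ULI1 had the largest single response. It had 939, 947 and 1453 CPM in double loss cells at 37 °C for 30 min, against 4.71, 5.68 and 7.37 CPM at 25 °C. The log2 fold change was 7.54 ± 0.29 (adjusted p = 2.5e-25), the largest of the 160 heat responses of these genes. At the same time and temperature it had 9.98, 12.6 and 19.3 CPM in MSN-deleted cells, 68.5, 70.4 and 103 CPM in Hsf1-depleted cells and 11.9, 13 and 15.9 CPM in wild type cells. The double loss libraries were thus above all of the others, and the Hsf1-depleted ones above those of both states that kept Hsf1. The response was larger by 6.33 ± 0.36 in double loss minus MSN-deleted cells (adjusted p = 2.3e-18) and by 2.52 ± 0.35 in Hsf1-depleted minus wild type cells (adjusted p = 1.5e-07). The difference between double loss and Hsf1-depleted cells was not tested.

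After 30 min at 42 °C all 10 genes rose in double loss, MSN-deleted and wild type cells, and several had smaller responses without nuclear Hsf1. KAR2 had 4678, 5987 and 6341 CPM in Hsf1-depleted cells, against 34006, 46325 and 47956 CPM in wild type cells. ERO1 had 109.6, 119 and 129 CPM in Hsf1-depleted cells, against 784, 799.6 and 818 CPM in wild type cells. No library of Hsf1-depleted cells reached the wild type range for either gene. Responses were smaller, with differences of -2.23 ± 0.39 for KAR2 and -2.30 ± 0.32 for ERO1 (adjusted p = 8.1e-05 and 8.0e-07). The rise of SCJ1 in wild type cells, 1.11 ± 0.28, lost its call under library totals alone (0.57, adjusted p = 0.175).

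By count, 10 of 10 genes rose at 42 °C for 30 min in double loss cells (25.5% of all genes), 10 in MSN-deleted cells (26.2%), 6 in Hsf1-depleted cells (29.8%) and 10 in wild type cells (30.2%). SCJ1, ERO1, PDI1 and EUG1 were the 4 not called in Hsf1-depleted cells, at 0.89 ± 0.28, 0.92 ± 0.23, 0.66 ± 0.42 and 0.54 ± 0.25. EUG1 had 111, 118 and 121 CPM in Hsf1-depleted cells, against 291, 319 and 347 CPM in wild type cells, and its response differed by -1.86 ± 0.36 (adjusted p = 0.00036). Lower responses in Hsf1-depleted minus wild type cells were called for 6 of 10 genes, beside 2.6% of all genes, and in double loss minus MSN-deleted cells for 5 of 10, beside 2.65%. Lower in double loss minus wild type cells were 3 of 10, beside 14.9% of all genes. MPD1 was in none of these counts, at -0.72 ± 0.29, -0.66 ± 0.29 and -0.80 ± 0.29, and neither were LHS1, SCJ1 and ULI1. ULI1 in double loss minus wild type cells had a larger response at 42 °C for 30 min, at 1.02 ± 0.34, the 1 of 10 that did (17.1% of all genes). That call was lost without any 1 of 7 libraries, namely replicates 1 and 2 of double loss at 25 °C, replicate 2 of double loss at 42 °C for 30 min, replicates 1 and 3 of wild type at 25 °C and replicates 2 and 3 of wild type at 42 °C for 30 min, at 0.85 to 0.97. The call also ended with DESeq2 (0.98), DESeq2's size factors (0.98), no filter on low counts (0.99) and without the 4 libraries that stand apart (0.88).

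Several of these calls were lost when 1 library was left out, in some cases any 1 of several. PDI1 in Hsf1-depleted minus wild type cells, at -2.19 ± 0.60, lost its call without Hsf1-depleted replicate 1 at 25 °C (-1.77), Hsf1-depleted replicate 1 at 42 °C for 30 min (-1.99) or wild type replicate 3 at 25 °C (-1.91). PDI1 in double loss minus wild type cells lost its call without replicate 1 of double loss at 25 °C (-1.09), replicate 1 or 3 of double loss at 42 °C for 30 min (-1.52 and -1.61) or replicate 3 of wild type at 25 °C (-1.54), and KAR2 without replicate 1 of double loss at 42 °C for 30 min (-0.96). The rise of PDI1 in double loss cells, 1.16 ± 0.43, was lost without replicate 2 at 25 °C (0.73) or replicate 2 at 42 °C for 30 min (0.78). KAR2 in double loss minus MSN-deleted cells, at -1.34 ± 0.39, was lost without any 1 of 8 libraries, namely replicates 1 and 2 of MSN-deleted at both temperatures and replicates 1 and 3 of double loss at both, at -1.39 to -1.23. EUG1 there, at -1.31 ± 0.35, was lost without MSN-deleted replicate 1 at 25 °C or replicate 2 at 42 °C for 30 min or double loss replicate 3 at 42 °C for 30 min, at -1.22 to -1.15. Scaling by library totals alone, which shifted the median over all tested genes by -0.55 to 1.01 on the log2 scale, ended the calls of SIL1, JEM1 and EUG1 in Hsf1-depleted minus wild type cells, at -0.50, -0.66 and -0.99. It also ended those of KAR2, ERO1 and PDI1 in double loss minus wild type cells, at -0.14, -0.57 and -0.58, and those of KAR2, SIL1, JEM1 and EUG1 in double loss minus MSN-deleted cells, at -0.67, -0.74, -0.82 and -0.67. With the compared libraries alone, KAR2 and EUG1 in double loss minus MSN-deleted cells (-1.31 and -1.28), KAR2 and PDI1 in double loss minus wild type cells (-1.14 and -1.68) and the rise of PDI1 in double loss cells (1.2) were not called.

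The time course of KAR2 at 37 °C ran in opposite directions in double loss and wild type cells, though the lower value at 30 min in wild type cells was not called. KAR2 in double loss cells averaged 864 CPM at 25 °C, 2275 CPM after 10 min and 15467 CPM after 30 min. In wild type cells it averaged 1338 CPM at 25 °C, 8037 CPM after 10 min and 4189 CPM after 30 min. All 10 genes were higher at 30 than at 10 min in double loss cells (11.4% of all genes) and all 10 in Hsf1-depleted cells (6.75%). In MSN-deleted cells 1 gene, EUG1, was higher (7.51% of all genes) and KAR2 and ERO1 were lower (3.21%), at -1.08 ± 0.28 and -1.34 ± 0.23. In wild type cells LHS1 and EUG1 were higher (10.3% of all genes), at 1.28 ± 0.28 and 1.32 ± 0.25, and KAR2 and ERO1, at -0.94 ± 0.27 and -0.96 ± 0.22, did not reach the fold threshold. Same-numbered wild type libraries of these 2 times deviated together, and with the compared libraries alone and the replicate number as a block ERO1 (-1.0) and SCJ1 (1.03, beside 0.97 without it) were called as well. Library totals alone ended the call of SCJ1 in Hsf1-depleted cells (0.97). Lost on leaving out 1 library were LHS1 in wild type cells (0.94 without replicate 3 at 10 min), EUG1 in MSN-deleted cells (0.91 without replicate 1 at 10 min, 1.0 without replicate 3 at 30 min), and PDI1 in double loss cells (1.21 without replicate 3 at 10 min, 0.99 without replicate 3 at 30 min) and in Hsf1-depleted cells (1.06 without replicate 2 and 1.24 without replicate 3 at 10 min).

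At 42 °C several genes rose further between 10 and 30 min in every state. Higher at 30 min were 7 of 10 genes in double loss (10.2% of all genes), 9 in MSN-deleted (9.65%), 4 in Hsf1-depleted (9.97%) and 8 in wild type cells (10.5%). SIL1 moved most in wild type cells, with 1361, 1479 and 1797 CPM at 30 min against 149, 163 and 175 CPM at 10 min and a log2 fold change of 3.25 ± 0.23 (adjusted p = 2.5e-16). LHS1 in double loss cells, at 1.0 ± 0.28, was lost without replicate 3 at 10 min (0.97) or replicate 2 at 30 min (0.70), with the compared libraries alone (0.99) and once the set entered the fit (0.96), and JEM1 in Hsf1-depleted cells, at 1.01 ± 0.23, without replicate 3 at 10 min (0.96).

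At 30 min the hotter shock gave higher levels in the 2 states that kept nuclear Hsf1, and lower levels of several genes in the other 2. The difference between states in this effect of temperature was not tested. At 42 °C against 37 °C for 30 min, 10 of 10 genes were higher in MSN-deleted cells (21.4% of all genes) and 9 of 10 in wild type cells (21.5%), whereas 0 of 10 were higher by edgeR in double loss and Hsf1-depleted cells (20.9% and 18.7% of all genes). Lower at 42 °C were 5 of 10 in double loss cells (16.7% of all genes) and 6 of 10 in Hsf1-depleted cells (13.9%). ULI1 had 96.7, 115 and 120.0 CPM at 42 °C for 30 min in double loss cells, against 939, 947 and 1453 CPM at 37 °C for 30 min, a log2 fold change of -3.33 ± 0.24 (adjusted p = 3.3e-16). MPD1 was the exception in its direction, at 0.82 ± 0.21 in double loss and 0.76 ± 0.21 in Hsf1-depleted cells, below the fold threshold. At 10 min, 0 of 10 genes were higher at 42 °C than at 37 °C in double loss and in Hsf1-depleted cells by edgeR (13.1% and 12.2% of all genes), 1 in MSN-deleted cells (18.1%), which was MPD1, and 3 in wild type cells (15.4%), which were KAR2, SCJ1 and MPD1. MPD1 in wild type cells at 10 min, at 1.12 ± 0.21, lost its call on leaving out 1 library (0.87 without replicate 1 or 2 at 37 °C, 0.95 without replicate 3 at 42 °C). At 30 min SIL1 (-0.95 without replicate 2 at 37 °C, -0.99 without replicate 3 at 42 °C) and EUG1 (-0.94 without replicate 2 at 37 °C) lost theirs in double loss cells. There DESeq2 put SIL1 at -0.93 and SCJ1 at -0.92, below the fold threshold. Library totals alone ended the calls of PDI1 (0.94) and SCJ1 (0.77, adjusted p = 0.081) in wild type, of JEM1, PDI1 and ULI1 (-0.93, -0.87 and -0.93) in Hsf1-depleted and of SCJ1 (-0.95) in double loss cells at 30 min. The compared libraries alone ended those of SIL1 and SCJ1 in double loss cells at 30 min (-0.92 and -0.91) and of MPD1 in wild type cells at 10 min (1.07). In Hsf1-depleted cells at 30 min, calls lost on leaving out 1 library were ULI1 (-0.99 without replicate 1 at 37 °C) and PDI1 (-1.15 to -1.01 without replicate 1 or 2 of either temperature).

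Deleting MSN2 and MSN4 alone changed few of these responses. ULI1 at 42 °C for 30 min had 195, 205 and 229.8 CPM in MSN-deleted cells, against 53.6, 55.2 and 79.5 CPM in wild type cells, without overlap. Its response was larger by 1.93 ± 0.34 (adjusted p = 2.9e-05). ERO1 there had 1602, 1787 and 1860.3 CPM in MSN-deleted cells, against 784, 799.6 and 818 CPM in wild type cells, and its response was larger by 1.12 ± 0.32 (adjusted p = 0.0065). With SCJ1, at 1.06 ± 0.39, 3 of 10 genes had a larger response at 42 °C for 30 min, beside 12.7% of all genes. At 37 °C for 10 min 1 of 10 did (3.57% of all genes), which was SCJ1 at 1.61 ± 0.40 (adjusted p = 0.0038), and at 42 °C for 10 min 2 of 10 (2.92%), which were SIL1 at 1.0 ± 0.30 and JEM1 at 1.07 ± 0.33. These last 2 and SCJ1 at 42 °C for 30 min lay at the threshold, and each lost its call without any 1 of 9, 5 and 8 libraries, at 0.90 to 1.0, 1.01 to 1.04 and 0.91 to 1.08. With the compared libraries alone, ERO1 (0.96) and SCJ1 (0.90) at 42 °C for 30 min were not called. Leaving out wild type replicate 3 at 25 °C ended the calls of SIL1, JEM1 and, at 42 °C for 30 min, SCJ1, which left 3 in place of 6. Scaling by library totals alone gave 13 calls in place of 6.

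The rest of the pathway was read from lists, as counts and medians beside the share of all genes called, with no test of a list. Called up at 37 °C for 30 min were 16.9% of all genes in double loss, 7.87% in MSN-deleted, 22.9% in Hsf1-depleted and 14.4% in wild type cells, and called down were 20.9% in double loss, 7.87% in MSN-deleted, 25% in Hsf1-depleted and 13.1% in wild type cells. Of 17 genes of ER-associated degradation, 5 rose and 1 fell in double loss, 2 rose and 0 fell in MSN-deleted, 8 rose and 1 fell in Hsf1-depleted and 5 rose and 0 fell in wild type cells, with median log2 fold changes of 0.73 in double loss, 0.41 in MSN-deleted, 0.86 in Hsf1-depleted and 0.45 in wild type cells. DER1, which encodes a membrane protein of the export channel, rose by 3.60 ± 0.35 in double loss, 1.77 ± 0.33 in MSN-deleted, 2.61 ± 0.35 in Hsf1-depleted and 1.09 ± 0.33 in wild type cells on the log2 scale. HRD1, the ubiquitin ligase gene of this pathway, rose by 2.86 ± 0.23 in double loss, 1.06 ± 0.22 in MSN-deleted, 2.63 ± 0.23 in Hsf1-depleted and 1.14 ± 0.22 in wild type cells. The wild type calls of both were lost without replicate 3 at 37 °C for 30 min (0.96 and 0.98) and under library totals alone (0.93 and 0.98), that of DER1 also without replicate 2 at 25 °C (0.78), and the MSN-deleted call of HRD1 without replicate 1 at 25 °C (0.95) or at 37 °C for 30 min (0.96). The responses at 37 °C for 30 min differed in Hsf1-depleted minus wild type cells by 1.52 ± 0.47 for DER1 and 1.48 ± 0.31 for HRD1 (adjusted p = 0.012 and 0.00021). DER1 was not called there under library totals alone (1.60).

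Of 20 other ER folding and oxidation genes, 4 rose and 1 fell in double loss, 2 rose and 0 fell in MSN-deleted, 3 rose and 6 fell in Hsf1-depleted and 1 rose and 1 fell in wild type cells at 37 °C for 30 min. Their median log2 fold changes were 0.06 in double loss, 0.24 in MSN-deleted, -0.31 in Hsf1-depleted and -0.15 in wild type cells, and in double loss cells the share called up was close to that of all genes. ERJ5, a J-protein gene of the ER membrane, rose by 2.69 ± 0.30 in double loss and 1.99 ± 0.30 in Hsf1-depleted cells. EMC4 and SHR3, which serve the assembly and exit of membrane proteins, fell by 1.49 ± 0.40 and 1.91 ± 0.38 in Hsf1-depleted cells. Of 20 genes of ER entry and glycosylation, 6 rose and 0 fell in double loss, 1 rose and 0 fell in MSN-deleted, 1 rose and 2 fell in Hsf1-depleted and 2 rose and 0 fell in wild type cells. At 42 °C for 30 min 0 of the 20 rose and 4 fell in double loss, 1 rose and 0 fell in MSN-deleted, 0 rose and 9 fell in Hsf1-depleted and 1 rose and 5 fell in wild type cells. Of all genes, 24.6% were called down there in double loss, 23.2% in MSN-deleted, 27.2% in Hsf1-depleted and 29.5% in wild type cells, beside the shares called up given above.

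Of 7 genes of unfolded protein response signalling, 2 rose and 3 fell in double loss, 1 rose and 3 fell in MSN-deleted, 2 rose and 3 fell in Hsf1-depleted and 1 rose and 2 fell in wild type cells at 42 °C for 30 min. At 37 °C for 30 min 1 rose and 3 fell in double loss, 0 were called in MSN-deleted, 1 rose and 2 fell in Hsf1-depleted and 0 rose and 1 fell in wild type cells with edgeR. Over the 4 states, 25.5% to 30.2% of all genes were called up and 23.2% to 29.5% down at 42 °C for 30 min. The shares at 37 °C for 30 min were 7.87% to 22.9% up and 7.87% to 25% down. HAC1 rose at 42 °C for 30 min in all 4 states, by 2.34 ± 0.39 in double loss, 2.51 ± 0.40 in MSN-deleted, 1.78 ± 0.39 in Hsf1-depleted and 2.55 ± 0.40 in wild type cells. At 37 °C for 30 min its log2 fold change was 1.23 ± 0.38 in double loss cells, a call lost without replicate 2 at 25 °C (0.98) or replicate 3 at 37 °C for 30 min (0.81) and with the compared libraries alone (1.23), and 0.87 ± 0.38 in Hsf1-depleted and 0.75 ± 0.38 in wild type cells. Differences between states at 37 °C for 30 min ran from -0.30 to 0.78 and none was called with edgeR. Among heat responses IRE1 was called in double loss cells at 42 °C for 30 min only, at 1.01 ± 0.17, and not without replicate 2 at 25 °C or replicate 3 at 42 °C for 30 min (0.92 each). Its response there was larger in double loss minus wild type cells by 1.22 ± 0.24 (adjusted p = 8.0e-05).

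The genes of this list that fell were TRL1, GCN4 and PTC2. The tRNA ligase gene TRL1, whose product joins the HAC1 exons, had log2 fold changes of -1.33 ± 0.36 in double loss, -2.42 ± 0.40 in Hsf1-depleted and -1.64 ± 0.37 in wild type cells at 37 °C for 30 min, all called down. The first lost its call without replicate 2 of double loss at 25 °C (-0.85), under library totals alone (-0.98) and with the compared libraries alone (-1.32). GCN4, which encodes the activator of amino acid synthesis genes, had -1.68 ± 0.26 in double loss and -1.65 ± 0.26 in Hsf1-depleted cells at 37 °C for 30 min. At 42 °C for 30 min GCN4 fell in all 4 states, by 1.31 ± 0.26 in double loss, 2.45 ± 0.27 in MSN-deleted, 1.67 ± 0.26 in Hsf1-depleted and 2.23 ± 0.27 in wild type cells, the first not called under library totals alone (-0.85). The phosphatase gene PTC2 had -2.30 ± 0.50 in double loss cells at 37 °C for 30 min and -2.03 ± 0.50 in MSN-deleted cells at 42 °C for 30 min. Gene counts do not show whether HAC1 mRNA was spliced.

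Lists of the other regulators gave the setting. They were chosen with earlier results of these data known, so their counts are a description and not independent support. Of 18 cytosolic chaperone genes known as Hsf1 targets, 15 had a lower and 0 a higher response in double loss minus MSN-deleted cells at 37 °C for 10 min, beside 1.14% of all genes lower and 3.28% higher. In Hsf1-depleted minus wild type cells 10 had a lower and 1 a higher response, beside 1.58% lower and 1.65% higher. Of 12 genes known as targets of Msn2 and Msn4, 11 had a lower response in MSN-deleted minus wild type cells at 37 °C for 10 min, beside 9.79% of all genes.

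Across the 20 group means of log2 CPM the 10 genes varied together to different degrees, from r = 0.59 for SCJ1 and ERO1 to r = 0.99 for SIL1 and JEM1. Each point is the mean of the libraries of 1 group, and the groups share states and heat conditions. Both genes of a pair were read in the same libraries under the same scaling, and r is given as a description. Of 4490 other genes considered, MCD4, which acts in the synthesis of glycosylphosphatidylinositol anchors in the ER, was most like SIL1 (r = 0.97), LHS1 (r = 0.97), JEM1 (r = 0.96) and EUG1 (r = 0.93). KAR2 was most like ROQ1 (r = 0.90) and ERO1 most like LCB5 (r = 0.91). ADD66 was most like SCJ1 (r = 0.96), SFB3 most like PDI1 (r = 0.93), the cell surface protease gene YPS1 most like MPD1 (r = 0.97) and YRM1 most like ULI1 (r = 0.95).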

How the data were processed

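Per the labels' protocols, poly(A) RNA was made into libraries with a Lexogen SENSE kit and read as 50 bp single reads. The deposited values are raw read counts, 1 table for each of 60 libraries with 7126 features. The submitters' processing notes name featureCounts 2.0.0, bcl2fastq 1.8.4, DESeq2 1.28.1 and build R64, and per the file headers the counts come from trimmed reads and contextmap. A strand setting is not given in the sources used here. By locus tag, the R64 annotation held 6048 of the features, and 0.459% of counts fell on the rest. The authors' table of their own comparisons was not used.

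From the counts, filterByExpr kept 6070 genes, the 10 included, and removed 1056. One model over all libraries, with 1 mean per group, was fitted with edgeR 4.0.16 under R 4.3.3 (TMM scaling, two-sided quasi-likelihood F test). Each of 52 comparisons was adjusted over the genes tested by Benjamini-Hochberg. They are 16 heat responses, 4 comparisons at 25 °C, 16 differences of heat responses, 8 between times and 8 between temperatures. Standard errors (SE) are the absolute log2 fold change over the root of F. CPM divide counts by the TMM-scaled library size. The fit was also run on simulated counts in which a small part of the genes changed, in 1 group. Wild type cells at 42 °C for 30 min had 30.2% of genes called up and 29.5% down. Scaling under changes that broad was not tested by the simulation. With 3 counts as a floor, 1 library resolves 0.296 to 0.78 CPM, which covers counting error only. No replicate pair was a duplicate (chi-square per degree of freedom 9.25 to 235).

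The genes and lists were chosen with earlier results of these data known. Named are the 10 genes, genes among the 4 largest called of a list in a comparison described, HAC1, IRE1 and, as strain checks, MSN2, MSN4 and SSA4, the last picked after its values were seen. Of 3 genes most like each of the 10, the first is given. Promoter windows were read from the R64 reference genome with Biopython 1.88 for 6001 genes. The file names sort the libraries into 6 sets of 10, and each MSN background has 3 sets of its own. Alternatives were DESeq2's size factors, scaling by library totals alone, no filter on low counts, the replicate number as a block, the set as a term, the compared libraries alone, DESeq2 1.42.0, each library left out and, chosen after seeing the data, a fit without 4 libraries that stand apart and, in 3 comparisons where every same-numbered pair deviated together (r over 0.1; 0.12 to 0.86, 0.19 to 0.55 and 0.15 to 0.53), the compared libraries alone with the replicate number as a block. In 2 of these 3 the pairs also share a set.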

Additional observations from a re-analysis of the deposited data

Results flagged for a closer look

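In 58 of 160 pairs of a gene and a comparison, the heat response differed between 2 states by edgeR's test of the difference itself. The shares of all genes called, given with each count above, ran from 0.0329% to 17.1% by comparison and direction. Each share is for 1 direction, while the 58 pairs take both together. In double loss minus wild type cells at 42 °C for 30 min, for example, 17.1% of all genes had a larger response and 14.9% a smaller one. The comparisons share libraries, so the pairs are not independent of each other. Values are differences of log2 fold changes. In Hsf1-depleted minus wild type cells at 37 °C for 10 min they were -1.61 for KAR2 and -1.97 for ERO1, and at 42 °C for 10 min -2.59 for KAR2 and -2.20 for ERO1. In the same comparison at 37 °C for 30 min they were 1.98 for KAR2, 2.52 for SIL1, 1.33 for SCJ1, 1.19 for JEM1, 1.53 for ERO1, 1.57 for MPD1 and 2.52 for ULI1. At 42 °C for 30 min they were -2.23 for KAR2, -1.33 for SIL1, -1.54 for JEM1, -2.30 for ERO1, -2.19 for PDI1 and -1.86 for EUG1.

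In MSN-deleted minus wild type cells the difference was 1.61 for SCJ1 at 37 °C for 10 min. At 42 °C for 10 min it was 1.0 for SIL1 and 1.07 for JEM1, and at 42 °C for 30 min 1.06 for SCJ1, 1.12 for ERO1 and 1.93 for ULI1.

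For double loss minus wild type cells the differences at 37 °C for 10 min were -1.19 for KAR2, 1.83 for SCJ1 and -1.76 for ERO1, and at 42 °C for 10 min -1.99 for KAR2 and -1.89 for ERO1. At 37 °C for 30 min they were 2.52 for KAR2, 3.14 for SIL1, 2.82 for SCJ1, 1.72 for JEM1, 1.82 for ERO1, 1.18 for EUG1, 1.43 for MPD1 and 6.56 for ULI1. Those at 42 °C for 30 min were -1.14 for KAR2, -1.50 for ERO1, -1.68 for PDI1 and 1.02 for ULI1.

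In double loss minus MSN-deleted cells the differences at 37 °C for 10 min were -1.35 for KAR2 and -2.70 for ERO1, and at 42 °C for 10 min -1.81 for KAR2 and -2.69 for ERO1. At 37 °C for 30 min they were 2.50 for KAR2, 2.68 for SIL1, 1.17 for LHS1, 2.10 for SCJ1, 1.86 for JEM1, 1.25 for ERO1, 1.30 for EUG1, 1.44 for MPD1 and 6.33 for ULI1. Those at 42 °C for 30 min were -1.34 for KAR2, -1.35 for SIL1, -1.46 for JEM1, -2.62 for ERO1 and -1.31 for EUG1.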

How the results depend on the processing

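Of 520 pairs of a gene and a comparison 249 were called, and 0 of these changed direction under any alternative run. In the comparisons counted above, 0.0329% to 30.2% of all genes tested were called, for 1 direction at a time except at 25 °C. The 249 calls take both directions together, and so cannot be set against these shares directly. Wild type cells at 42 °C for 30 min, for example, had 30.2% of all genes called up and 29.5% called down. DESeq2's size factors lost 3 calls and gained 7, library totals alone lost 28 and gained 38, no filter lost 4 and gained 9, the library set as a term lost 2 and gained 5, the compared libraries alone lost 16 and gained 5, and DESeq2 lost 3 and gained 9. Leaving out 1 library at a time lost 31 calls and gained 37, each at least once. The count of calls in MSN-deleted minus wild type cells was 6, and was 13 with library totals alone, where the cause was not tested, and 3 to 7 on leaving out 1 library. Without 1 library, calls numbered 27 to 31 in the heat responses of double loss, 28 to 31 of MSN-deleted, 20 to 23 of Hsf1-depleted and 25 to 27 of wild type cells, and 0 at 25 °C. They numbered 16 to 20 in double loss minus MSN-deleted, 16 to 19 in Hsf1-depleted minus wild type and 15 to 18 in double loss minus wild type cells. Between times they numbered 24 to 28 at 37 °C and 27 to 30 at 42 °C, and between temperatures 3 to 4 at 10 min and 28 to 31 at 30 min. Library sets are nested in the MSN background, so 2 comparisons at 25 °C could not take the set as a term.

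With the replicate number as a block, 1 call was lost and 2 were gained, with 18 in place of 17 in Hsf1-depleted minus wild type, 5 in place of 6 in MSN-deleted minus wild type cells and 29 in place of 28 between times at 42 °C. Every other count was equal with the block: 28, 29, 20 and 27 in the heat responses of double loss, MSN-deleted, Hsf1-depleted and wild type cells, 0 at 25 °C, 17 in double loss minus wild type, 18 in double loss minus MSN-deleted, 25 between times at 37 °C, and 4 and 30 between temperatures at 10 and 30 min. Deviations of same-numbered libraries had r from -0.67 to 0.86 over 108 pairs, of which 41 were over 0.1, and the own number was highest in 31. In 3 of 36 comparisons all 3 pairs were over 0.1: double loss at 37 °C for 30 min against 25 °C, wild type at 30 against 10 min at 37 °C, and double loss at 42 against 37 °C for 10 min. In these, with the compared libraries alone and the replicate number as a block, chosen after seeing the data, 0 of 12 calls were lost and 2 gained. Elsewhere the number was not taken to pair libraries. Of the 108 pairs 19 also share a library set, and 13 of these were over 0.1.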
